A study of Mus musculus with 13 samples.

Results

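The Serpin genes encode a family of protease inhibitors, and 25 of them were examined in murine liver RNA sequencing data. The members were the rows of the authors' deposited liver table that are typed as protein-coding and carry a symbol of the form Serpin, a clade letter from a to i and a number. They were found among 11396 protein-coding rows and 11779 rows in all. GENCODE release M21 annotates 60 protein-coding genes by the same selection, and the other 35 were not analysed here. The table comes from the livers of Balb/c mice collected on day 5 after injection. Of these mice, 3 were given the GalNAc-conjugated ASO against luciferase (Luc ASO). The other 3 were given a GalNAc-conjugated mix of ASOs against the long non-coding RNA LL35 (LL35 ASO). The paper's text counts 5 ASOs in this mix, and its supplementary list for mice shows fewer. GalNAc is a sugar that directs an oligonucleotide to hepatocytes, and luciferase is a reporter that mice do not carry, so both groups received a conjugated oligonucleotide and no untreated liver was included. The age of the mice is not given in the sources used here. The 7 AML12 libraries of the same series, from a hepatocyte cell line, were not analysed here, and neither was the LL35 transcript itself.

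Serpins act as suicide substrates. A protease cuts an exposed reactive centre loop near the carboxyl-terminal end of the serpin, and the serpin then changes shape and traps the protease. The loop works as bait, so its sequence sets which proteases are taken. The liver is known as the main source of the serpins of blood plasma, which hold coagulation, fibrinolysis, complement and leukocyte elastase in check. Most plasma serpins are secreted, clade B serpins lack a classical signal peptide and work mostly inside cells, and a few members, such as Serpina6, Serpinf1 and Serpinh1, carry hormones, act on vessels or fold collagen and inhibit no protease.

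The value used for each gene was the authors' mean normalized count over the libraries of the liver comparison. It pools Luc ASO and LL35 ASO livers, so it has no error, no value for a single mouse and no value for either group alone. The table also carries the authors' own comparison of both groups, which was not used here, and the effect of LL35 depletion on the Serpin genes is therefore not reported. To compare genes, the mean was divided by the length of the merged exons in GENCODE M21 and is given as the level per kb. The lowest mean normalized count in the table was 15.6, and the reads behind each mouse are unknown.

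Per kb of exon, the 25 Serpin genes fell into 2 sets with a gap between them. On the per-kb scale, 17 members lay in the top 10% of the listed protein-coding genes, which began at 339 per kb, and the other 8 lay under the median gene at 52.1 per kb. No member stood between these limits. The lowest member of the upper set was Serpina11 at 428 per kb, and the highest of the lower set was Serpina12 at 42.2 per kb, a ratio of 10.1. Without division by length, 15 members were in the top 10% and the same 8 lay under the median. The members that left the top 10% were Serpina1e and Serpina11, which then stood between the limits. The step between the sets was also smaller, from a mean normalized count of 702 for Serpina11 to 210 for Serpinb6a. Per kb of coding sequence these genes stood at 539 and 176, with 15 members in the top 10% and 18 above the median gene. The empty interval thus belongs to the scale per kb of exon.

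**Figure D1:**
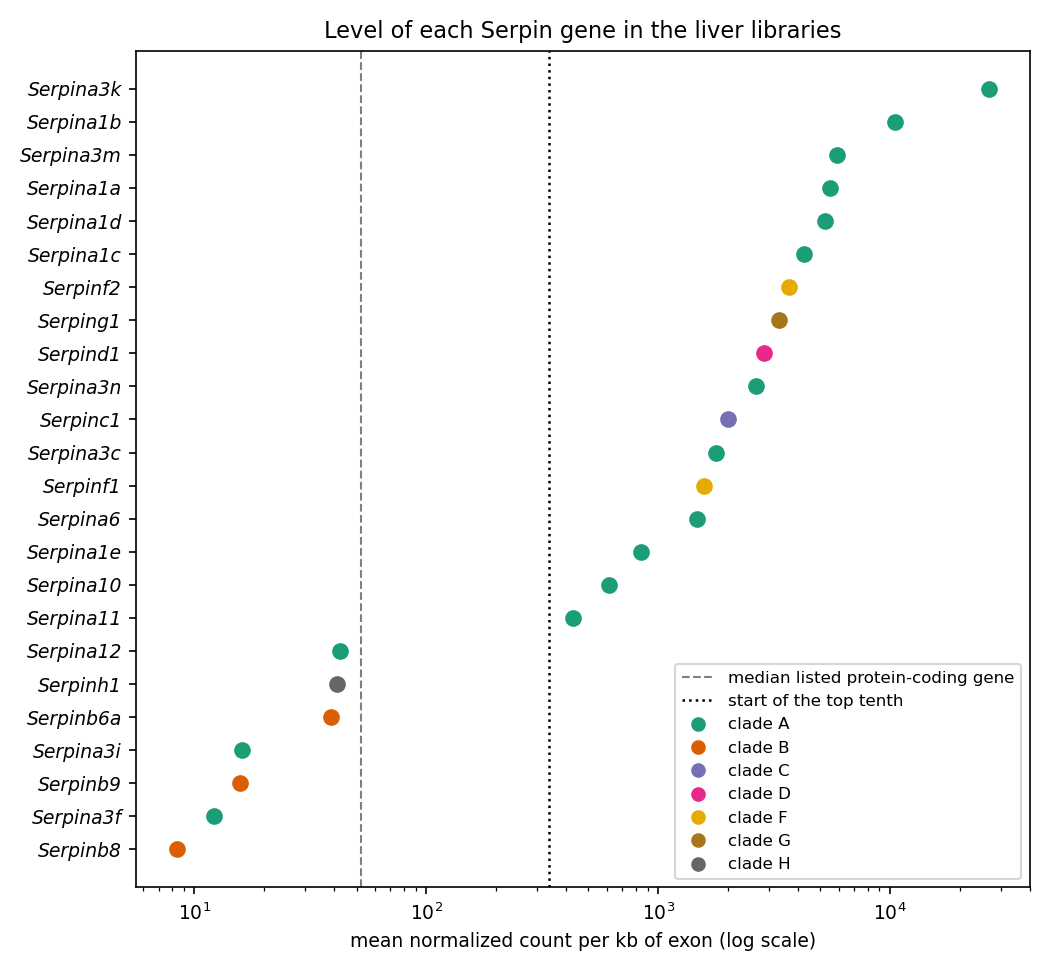
Mean normalized count per kb of exon (log axis) for each Serpin gene named in the text, pooled over the liver libraries, with the colour giving the clade; the points carry no error because the table gives 1 mean per gene. The upper 17 genes lie right of the dotted line at 339 per kb, the others lie left of the dashed median at 52.1 per kb, and Serpina3k stands highest at 26740 per kb.

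The family is strongly unequal. The highest and the lowest member differed 3179-fold per kb. The members together held 1.58% of the summed mean normalized counts of the listed protein-coding genes, and the 3 with the highest counts, Serpina3k, Serpina1b and Serpinc1, held 56.1% of the family's sum. The 8 lower members together held 0.394% of it. With no error on the means, neighbours in this order cannot be said to differ. Some stood close together per kb, Serpina3m being 1.07 times Serpina1a and Serpina1a 1.05 times Serpina1d.

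Human alpha-1-antitrypsin, the plasma inhibitor of neutrophil elastase, comes from a single gene. Its mouse counterparts are a cluster, here the 5 copies of Serpina1, and which proteases each copy inhibits was not tested. Before the levels of the copies are compared, it matters how alike they are. A read from a stretch that 2 copies share cannot be placed. The coding sequences of the 10 pairs of copies were 96.3% to 98.5% identical, the closest pair being Serpina1a and Serpina1c. Over the 1239 aligned bases, the 5 copies differed at 86. These differences were spread unevenly: 10 fell in the first 540 bases and 76 in the remaining 699. The densest window of 60 bases held 18 of them, so that 30% of its bases differed against 5.77% outside it.

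That window is shown for each copy because it is where they can best be told apart. It spans bases 1101 to 1160 of the 1239 coding bases, counted from 1 at the start codon (1170 to 1229 of 1308 in Serpina1a, whose annotated coding sequence starts earlier), and begins in the last 11.2% of the coding sequence. Capitals mark the bases at which the copies are not all the same. The sequences are those of the GENCODE M21 transcripts, written 5′ to 3′ on the coding strand.
Serpina1a: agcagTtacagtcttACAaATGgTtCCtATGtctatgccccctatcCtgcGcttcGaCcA
Serpina1b: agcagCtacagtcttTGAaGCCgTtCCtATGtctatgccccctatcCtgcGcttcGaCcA
Serpina1c: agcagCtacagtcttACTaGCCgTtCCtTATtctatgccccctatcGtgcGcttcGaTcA
Serpina1d: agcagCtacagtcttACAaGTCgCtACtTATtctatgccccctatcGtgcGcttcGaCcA
Serpina1e: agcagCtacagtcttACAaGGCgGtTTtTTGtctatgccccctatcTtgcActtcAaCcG
Most capitals sit between the 16th and the 31st base.

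**Figure D2:**
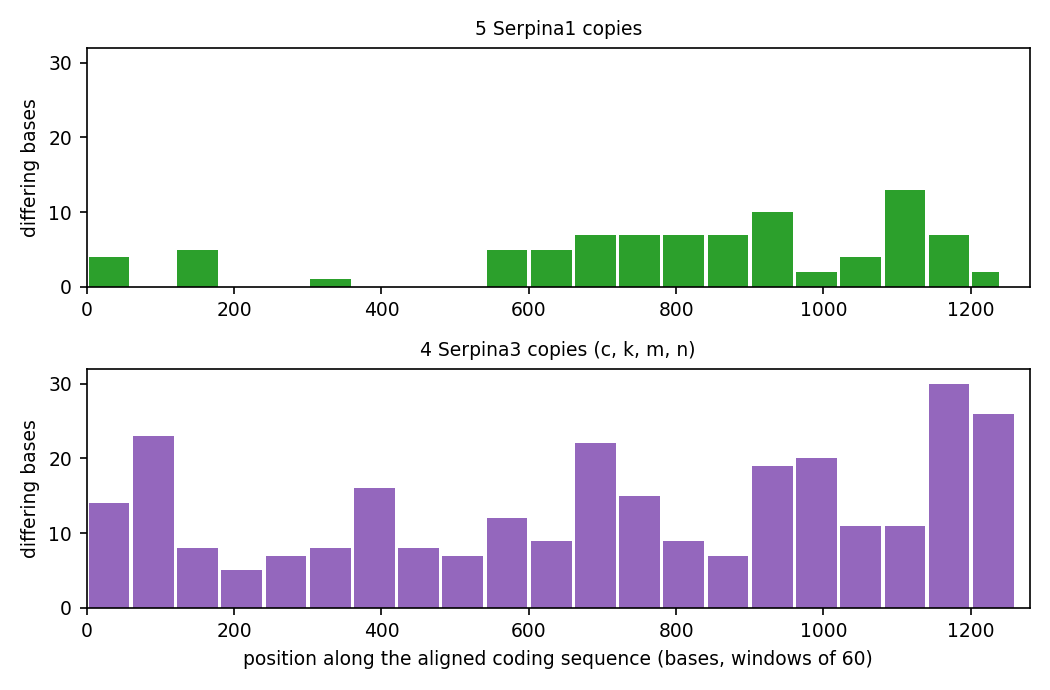
Number of bases that are not the same in all aligned copies, in consecutive windows of 60 bases along the coding sequence, for the 5 Serpina1 copies (top) and the 4 Serpina3 genes of the upper set (bottom), with alignment gaps not counted as differences. The tallest bar of each group lies near the end, at 13 differing bases in Serpina1 and 30 in Serpina3, the latter in a window that also holds 10 columns with a gap.

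The 5 copies differed in level despite this likeness. Serpina1b had the highest at 10484 per kb, from a mean normalized count of 25318. Serpina1a stood at 5497 per kb, Serpina1d at 5249 and Serpina1c at 4262, while Serpina1e was lowest at 840 per kb, 12.5-fold under Serpina1b. Summed, the copies reached 26331 per kb, against 26740 per kb for Serpina3k alone, and held 33.1% of the family's level per kb.

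This order depended on how shared sequence was handled. STAR counts per gene only reads that map to 1 place. Stretches held at 2 places therefore add to a gene's length but not to its count. The shares of stretches given here cover both strands, and genes that overlap at 1 place were not told apart from copies. Of the distinct 50-base stretches in the annotated transcripts of Serpina1c, 79.3% also occurred in a transcript of another gene, mostly Serpina1a. The share was 57.6% for Serpina1a, 50.9% for Serpina1d, 34.6% for Serpina1e and 29.5% for Serpina1b. When the mean normalized count was divided by the number of stretches found in no other gene, Serpina1c moved from the fourth place to the first, with 34.2% of the summed level of the 5 copies against 16.2% per kb, and Serpina1b went from 39.8% to 25.2%. On the 50-base scale the copies summed to 1.96 times Serpina3k, against 0.985 times per kb, and held 50.3% of the family's level. Stretches of 75 and 100 bases gave Serpina1c 33.2% and 32.1%. Serpina1e was last on each of these scales, with 2.13% to 3.19%. The reference transcripts are those of another strain, C57BL/6J, and the number of Serpina1 copies is known to vary among inbred strains, so reads of Balb/c copies may be spread over these genes in a way that was not tested.

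**Figure D3:**
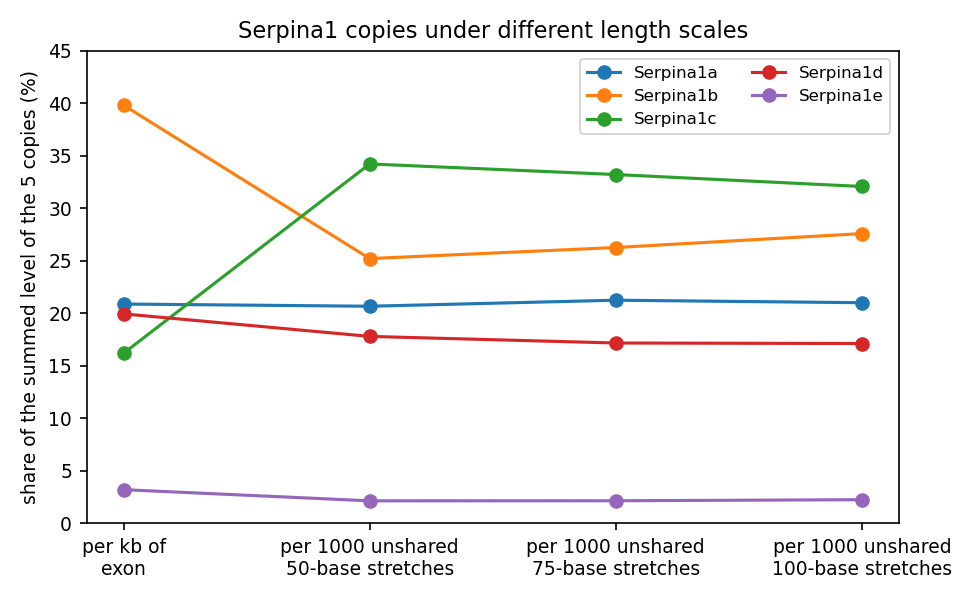
Share of the summed level of the 5 Serpina1 copies (percent) held by each copy, per kb of exon and per 1000 stretches of 50, 75 or 100 bases that occur in no other gene; lines join the values of 1 copy. Serpina1b is first per kb at 39.8%, Serpina1c is first on the 3 other scales at 34.2%, 33.2% and 32.1%, and Serpina1e stays at 3.19% or less.

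The promoters of the copies share sequence as well. The longest run common to the RefSeq promoter windows of all 5 copies (250 bases before to 50 after the annotated start) was 59 bases long, and no other gene's window in the table of 32851 windows held it. It is shown because all 5 copies carry it unchanged, and whether it bears on their levels was not tested. Capitals mark GTTAAT, a motif of HNF1, a hepatocyte transcription factor. This motif occurs, on either strand, in 7.1% of all windows. The match is a description of the letters and not of binding.
Serpina1 run: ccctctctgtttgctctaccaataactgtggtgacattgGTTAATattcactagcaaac
On the minus strand of GRCm38.p6 it lies at chr12:103863621-103863679 for Serpina1a, where it begins 60 bases before the start. It lies at chr12:103738196-103738254 for Serpina1b and chr12:103904958-103905016 for Serpina1c, beginning 65 and 66 bases before the start, and at chr12:103773630-103773688 for Serpina1d, beginning 55 bases before it. For Serpina1e it lies at chr12:103956956-103957014 and begins 117 bases before the start.

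The Serpina3 genes are mouse relatives of human antichymotrypsin and also lie in a cluster. The 6 that are members held 46.7% of the family's level per kb and spanned the widest range of any group, 2199-fold. Serpina3k, which encodes contrapsin, an inhibitor of trypsin-like proteases, had a mean normalized count of 55004 and 26740 per kb, which was place 13 among the listed protein-coding genes and held 33.6% of the family's level. Serpina3m followed at 5891 per kb, Serpina3n, an acute-phase gene, at 2651 and Serpina3c at 1774. Serpina3i and Serpina3f had only 16.0 and 12.2 per kb, from mean normalized counts of 35.7 and 27.9. The 4 abundant genes and the 2 scarce ones thus lay on opposite sides of the median gene.

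The Serpina3 genes are less alike than the Serpina1 copies, with coding identities of 92.0% for Serpina3k and Serpina3m, 92.0% for Serpina3i and Serpina3f and 90.3% for Serpina3m and Serpina3c. The lowest pair, Serpina3k and Serpina3f, shared 81.2%. Only 14.0% of the 50-base stretches of Serpina3k and 19.1% of those of Serpina3m occurred in another gene, and at 75 bases 7.36% and 9.65% did. Serpina3n had 6.9% and Serpina3c 4.25% at 50 bases. Their order among themselves was the same on both scales.

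For the 4 abundant Serpina3 genes, the densest window of 60 bases free of gaps held 27 differing bases, so that 45% of it differed against 22% of the ungapped bases elsewhere. For these 4 genes it lies near the end, at coding bases 1163 to 1222 of 1254 in Serpina3k, Serpina3m and Serpina3n and at 1154 to 1213 of 1251 in Serpina3c. The stretches are shown for comparison with those of Serpina1, and capitals mark bases that are not the same in all 4.
Serpina3c: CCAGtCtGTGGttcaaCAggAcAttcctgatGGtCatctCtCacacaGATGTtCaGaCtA
Serpina3k: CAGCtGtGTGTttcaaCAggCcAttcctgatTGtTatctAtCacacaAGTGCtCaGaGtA
Serpina3m: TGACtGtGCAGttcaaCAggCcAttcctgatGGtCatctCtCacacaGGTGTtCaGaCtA
Serpina3n: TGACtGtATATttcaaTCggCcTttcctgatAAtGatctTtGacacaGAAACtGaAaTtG
Over all 6 Serpina3 genes, with the scarce Serpina3i and Serpina3f included, the densest gap-free window instead lay near the start, with 34 differing bases (56.7% of the window), at coding bases 70 to 129 in Serpina3k and 37 to 96 in Serpina3f. The end stayed dense in differences as well. Alignment columns 1141 to 1200 held 33 differing bases beside 12 columns with a gap, so they could not count as gap-free.

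The inhibitors of coagulation, fibrinolysis and complement were all in the upper set. Serpinf2, alpha-2-antiplasmin, the inhibitor of plasmin, stood at 3653 per kb. Serping1, the C1 inhibitor that also restrains plasma kallikrein, stood at 3302 per kb and Serpind1, heparin cofactor II, a thrombin inhibitor, at 2858 per kb. None of these 3 genes shared a 50-base stretch with another gene. Serpina10, which inhibits activated factor X with protein Z as a cofactor, was lower at 616 per kb.

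Serpinc1, antithrombin, which inhibits thrombin and activated factor X with heparin as a cofactor, was the member whose place depended most on its length. Its mean normalized count of 17131 was the third in the family, but its merged exons span 8546 bases against 1409 of merged coding sequence, and it stood 11th per kb with 2005. Per kb of coding sequence it was 3rd again, at 12158. Of its 50-base stretches, 33.6% occurred in another gene, nearly all in Zbtb37, whose annotated transcripts contain the same sequence.

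The proteases that these serpins hold in check were also measured. Of 16 listed as targets, 15 had a value, with a median of 689 per kb against 1580 per kb for the 25 Serpin genes. Plg, the precursor of plasmin, stood at 7231 per kb, above its inhibitor Serpinf2. F2, the precursor of thrombin, stood at 3334 per kb, above its inhibitors Serpind1 and Serpinc1. Against Serpinc1 the direction turned without division by length, the mean normalized counts being 15317 for F2 and 17131 for Serpinc1. Plau, the urokinase-type plasminogen activator, was at 6.63 per kb from a mean normalized count of 15.7, and so lay under the median gene. Levels of mRNA say nothing of the amounts of the proteins in plasma.

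The secreted members Serpina6 and Serpinf1, which carry other tasks, were abundant as well. Serpina6, the corticosteroid-binding globulin that transports glucocorticoids in blood, had 1468 per kb. Serpinf1, pigment epithelium-derived factor, which restrains the growth of vessels and inhibits no protease, had 1580 per kb. Serpina11, about which little is known, had 428 per kb, with 35.7% of its 50-base stretches also found in the annotated gene Gm28577.

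**Figure D4:**
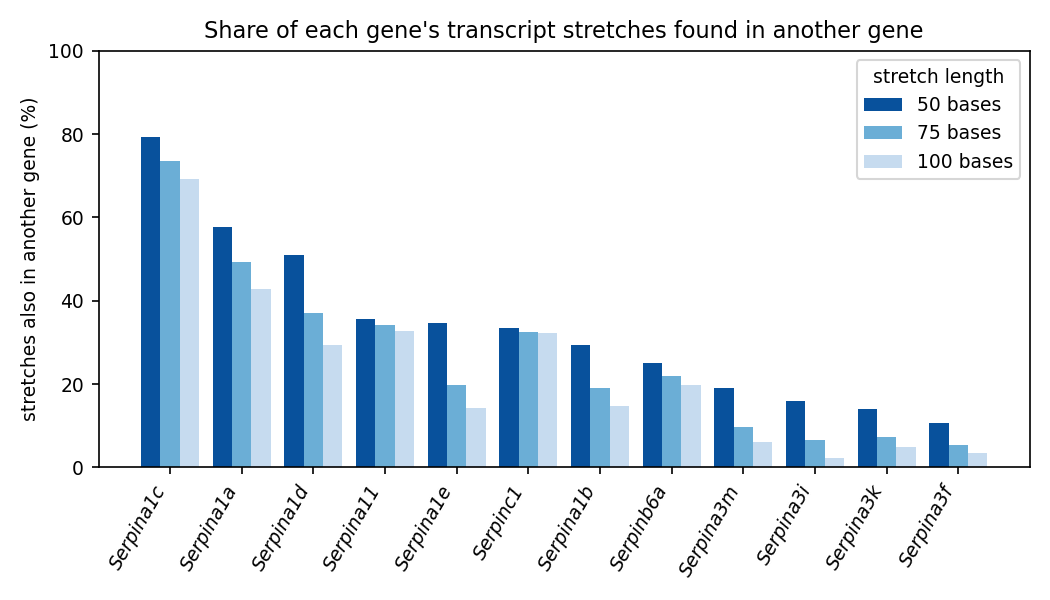
Percent of the distinct stretches of 50, 75 or 100 bases in the annotated transcripts of a gene that also occur in a transcript of another gene, for the 12 Serpin genes with at least 10% at 50 bases. Serpina1c is highest at 79.3%, 73.6% and 69.3%, and the bars of the Serpina3 genes fall under 10% at 75 bases.

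The 8 members under the median gene included all 3 clade B members, out of 26 clade B genes annotated in GENCODE M21 by the same selection. Serpinb6a, an intracellular inhibitor of cathepsin G, stood at 38.9 per kb, Serpinb9, which inhibits granzyme B, at 15.8 and Serpinb8, an inhibitor of furin, at 8.41. Per kb of coding sequence Serpinb6a stood above the median gene, its merged exons spanning 5409 bases against 1197 of coding sequence. Of its 50-base stretches, 25.1% occurred in other genes, mainly Nqo2, 1110046J04Rik and Ripk1. Serpina12, or vaspin, a serpin of visceral fat, had 42.2 per kb. Serpinh1, the collagen chaperone of the endoplasmic reticulum known as Hsp47, had 41.2 per kb. The mean normalized counts of Serpinb8, Serpina3i and Serpina3f were under 50, so these levels rest on few reads.

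Markers of cell types were set beside the family because the sequenced pieces were whole liver, in which fewer cells of a type and less RNA per cell cannot be told apart. The 7 hepatocyte markers with a value lay between 11434 per kb (Fgb) and 519843 per kb (Alb), so the labelled tissue carried its defining transcripts, and Serpina3k stood among them. The 6 Kupffer cell markers had a median of 198 per kb, the 6 sinusoidal endothelial markers 187 and the 6 stellate cell and fibroblast markers 56.8. Serpinh1 at 41.2 per kb lay within the range of the stellate cell and fibroblast markers, 13.8 to 265 per kb, which does not show which cells it comes from. Values were used for 2 of 5 markers of cholangiocytes, 1 of 4 of T and NK cells, 0 of 3 of B cells and 2 of 4 of neutrophils.

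**Figure D5:**
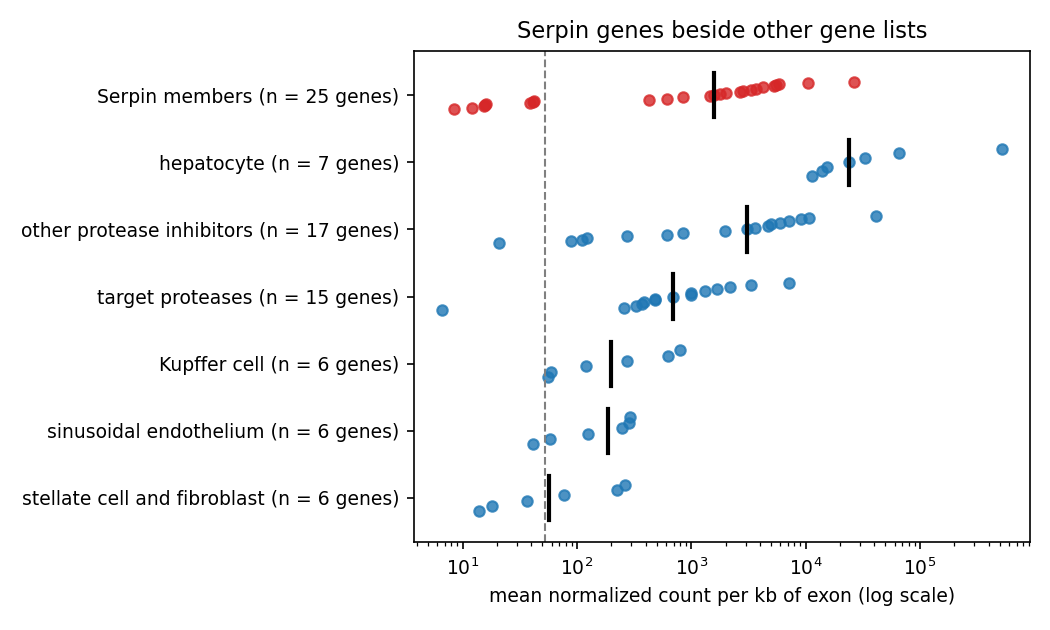
Mean normalized count per kb of exon (log axis) for the 25 Serpin genes (red) and the genes of 6 other lists (blue), each point being a gene, the black bar the median of its list and the dashed line the median of all listed protein-coding genes at 52.1 per kb. The Serpin genes split on both sides of the dashed line, while the 7 hepatocyte markers all lie at 11434 or above.

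Position in the genome went with level only in part. In the RefSeq gene order of GRCm38.p6, all 15 clade A members lay in 1 block of 23 family genes, in the order Serpina10, Serpina6, the 5 Serpina1 copies, Serpina11, Serpina12 and the 6 Serpina3 genes. Within that block, 12 members belonged to the upper set and 3, Serpina12, Serpina3f and Serpina3i, to the lower one. Serpinf1 and Serpinf2 were also neighbours and stood at 1580 and 3653 per kb. The 15 clade A members held 83% of the family's level per kb, and the 3 clade B members held 0.0794%.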

How the data were processed

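Liver RNA was sequenced by the authors from 3 Luc ASO and 3 LL35 ASO mice. Per the paper's methods and the labels, reads were aligned with STAR 2.5.3a, counted per gene on an Ensembl annotation, and normalized and compared in DESeq2; the genome build is not given in the sources used here. Libraries were ribosomal RNA-depleted. The deposited table gives the authors' mean normalized count, a signal averaged over the compared libraries, which was used here. Its other columns hold the authors' own comparison (log2 fold change, standard error, Wald statistic, p-values) and were not used. With no column for a single mouse, no new test between groups could be made. The depth per mouse and the precision of the means are unknown for the same reason.

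All 25 members matched GENCODE M21 by Ensembl identifier. Merged exon and coding lengths came from its annotation, and stretches from its transcripts on both strands. The read length printed in the methods cannot be right, so stretches of 50, 75 and 100 bases were tried. Coding sequences were aligned in Biopython 1.88 and MAFFT 7.526, under Python 3.11.15 with pandas 2.3.3, scipy 1.17.1 and matplotlib 3.10.9, and the steps were tested on simulated sequences. Members were named, other genes came only from fixed lists, and members and lists were chosen with earlier results of these data known. Zbtb37, Nqo2, 1110046J04Rik, Ripk1 and Gm28577 were named after their values were seen. Promoter windows were found for 19 of 25 members (76%), under the 80% needed, so the planned motif counts over the family are void. No protein sequences were used. Some family genes are counted or left out without being reported here by name.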

Additional observations from a re-analysis of the deposited data

How the results depend on the processing

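No paired analysis was possible because the table holds 1 mean per gene and no column for a single mouse, and for the same reason no mouse could be left out. The count of members in the top 10% (17) and above the median (17) stayed between 15 and 18 with no length, with coding length and when genes under 50 were left out. Members under the low-value limit rose from 3 to 5 with a limit of 100. The family's 1.58% of the listed protein-coding signal became 1.54% of all listed genes, 2.26% per kb and 1.98% without the 10 highest other genes, and the 56.1% held by its 3 highest members became 54.2% per kb, where Serpina3m replaces Serpinc1 among the 3. The first 3 genes held 49.4% per kb. Pairs with a coding identity of at least 80% numbered 25, or 24 over the shorter sequence and 25 by local alignment. Members with at least 10% of stretches shared numbered 12, or 8 at both 75 and 100 bases. The coding identity and shared stretch settings, and coding length from GENCODE, were chosen after seeing the data. Alternatives on protein length, protein identity, the reactive centre loop and the promoter motifs were not run. In all, 30 alternatives were computed for 12 results. Of these, 13 were labelled as keeping the value and 17 as moving it, most of the moves being in shares of the Serpina1 copies. A count was labelled as kept when it stayed near its main value, even if not equal, as with 12 and 8. A share was called moved when it lay outside the 95% binomial interval of its main value. That interval treated mean normalized counts, or levels per kb for the Serpina1 copies, as if they were numbers of reads. It holds no spread between mice and served only as a fixed rule for the label. The moves of the shares of the Serpina1 copies stand in the account of those copies. Unknown depth and unknown spread between mice limit every level.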

Other observations

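Other protease inhibitors, most of them secreted, were measured beside the Serpin genes. Of 20 in the list, 17 had a value, with a median of 3090 per kb of exon against 1580 for the 25 Serpin genes. Ahsg, fetuin-A, stood highest at 41124 per kb, above Serpina3k. Pzp and Mug1, large inhibitors of the alpha-macroglobulin family that trap proteases of many kinds, stood at 10800 and 7181 per kb. Ambp, the precursor of bikunin, had 9092 per kb, and Itih2, Itih3 and Itih1, the inter-alpha-inhibitor heavy chains that are linked to bikunin, had 4657, 3598 and 1969. Tfpi, the inhibitor of the tissue factor pathway that endothelial cells are known to make, was lowest at 20.9 per kb.

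Genes for the handling of serpins were measured too. Vtn, vitronectin, an adhesive protein of plasma, stood at 8454 per kb, and Lrp1, a receptor that clears complexes of serpins with proteases, at 1235 per kb. Lman1 and Mcfd2, which form a cargo receptor for export from the endoplasmic reticulum, stood at 400 and 959 per kb. Plaur, the urokinase receptor, was at 6.73 per kb, from a mean normalized count of 17.6.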
